A study of Danio rerio with 14 samples.

Results

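The genes rarga, nr2f5 and nrip1b encode nuclear proteins of the retinoid signaling system, and their transcripts were followed in zebrafish embryos and in a zebrafish cell line. Every probe set that the gene table of the array pairs with 1 of these 3 symbols was taken, which gave 4 of the 15502 probe sets tested and 3 of the 8793 genes named. rarga was measured by Dr.194.1.S1_at and Dr.23544.1.S1_s_at, nr2f5 by Dr.22.1.S1_at and nrip1b by Dr.4603.1.A1_at.

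RNA from 14 samples was hybridized to Affymetrix zebrafish arrays, with 2 arrays for each of 7 groups. The groups were whole embryos treated with retinoic acid (RA) and untreated whole embryos at 4, 6 and 9 hpf (hours post fertilization), and the fibroblastic cell line ZF4. By the methods of the study the embryos were Ekkwill fish from natural matings, and RA was put into the water in early cleavage and left there until harvest, so the older RA embryos were also exposed for longer. Whether both replicates stem from different clutches or cultures is not given by the labels. A p-value here therefore measures just the spread between the samples at hand, which may be technical. The number of arrays limits the precision of every value.

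RA, made from vitamin A, enters the nucleus and binds RA receptors, which sit on DNA as dimers with retinoid X receptors. Without RA these dimers recruit corepressors, and with RA they recruit coactivators instead. In vertebrate gastrulae the pathway activates hox genes and patterns the hindbrain and trunk. rarga itself encodes an RA receptor of the gamma type. nr2f5 encodes an orphan nuclear receptor of the COUP-TF (NR2F) family, which binds DNA sites that overlap those of RA receptors. nrip1b encodes a protein of the RIP140 family, known in mammals as a corepressor that binds many nuclear receptors while they carry their ligand.

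Values are log2 expression values as deposited, and differences are log2 differences with the standard error of the limma model (SE). A difference is called where the p-value, adjusted by the Benjamini-Hochberg method over all 15502 probe sets, is under 0.05. Overlap of groups is only described, since groups of 2 arrays separate easily. The share of all probe sets that did so is not given. The array medians lay between 6.11 and 6.31 and the replicates of a group correlated at 0.929 to 0.952. Probe sets that match no zebrafish gene (17 tag controls) gave a background level of 5.30, their 95th percentile over all arrays. A group with both arrays at or under it has only an upper limit, and a fold change against such a group is given as "at least". The medians of the tag controls differed between groups at 6 hpf, being 3.56 and 3.40 in RA embryos against 1.83 and 1.94 in untreated embryos. At 6 hpf both treatments had 16 of 16 gastrula markers, 9 of 10 blastula markers and 8 of 8 enveloping layer markers above background on both arrays. The yolk syncytial layer markers were above it in 6 of 11 cases in RA embryos and 8 of 11 in untreated embryos, with log2 summed levels of 13.05 and 13.24 in RA embryos and 13.54 and 13.28 in untreated embryos. Replicates stood apart in marker levels at the other stages. At 4 hpf the log2 summed levels were 8.10 and 11.08 in RA embryos and 9.02 and 12.28 in untreated embryos for the enveloping layer, and 10.82 and 12.36 in RA embryos and 11.20 and 12.88 in untreated embryos for the gastrula list. At 9 hpf those of the yolk syncytial layer were 12.61 and 14.25 in RA embryos and 14.47 and 12.69 in untreated embryos. The part of these differences in the stage changes of the members was not tested.

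The 3 genes had different time courses, and of them nr2f5 and nrip1b were called higher in RA embryos, at 6 hpf. rarga was low at 6 hpf between higher levels at 4 and 9 hpf, with or without RA. nr2f5 was at background at 4 hpf and was well above it at 9 hpf, and in RA embryos it was above background already at 6 hpf. nrip1b was high at 4 hpf and fell by 6 hpf in both treatments. In whole embryos, fewer cells of a type and less RNA per cell cannot be told apart, which applies to each of these values.

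**Figure D1:**
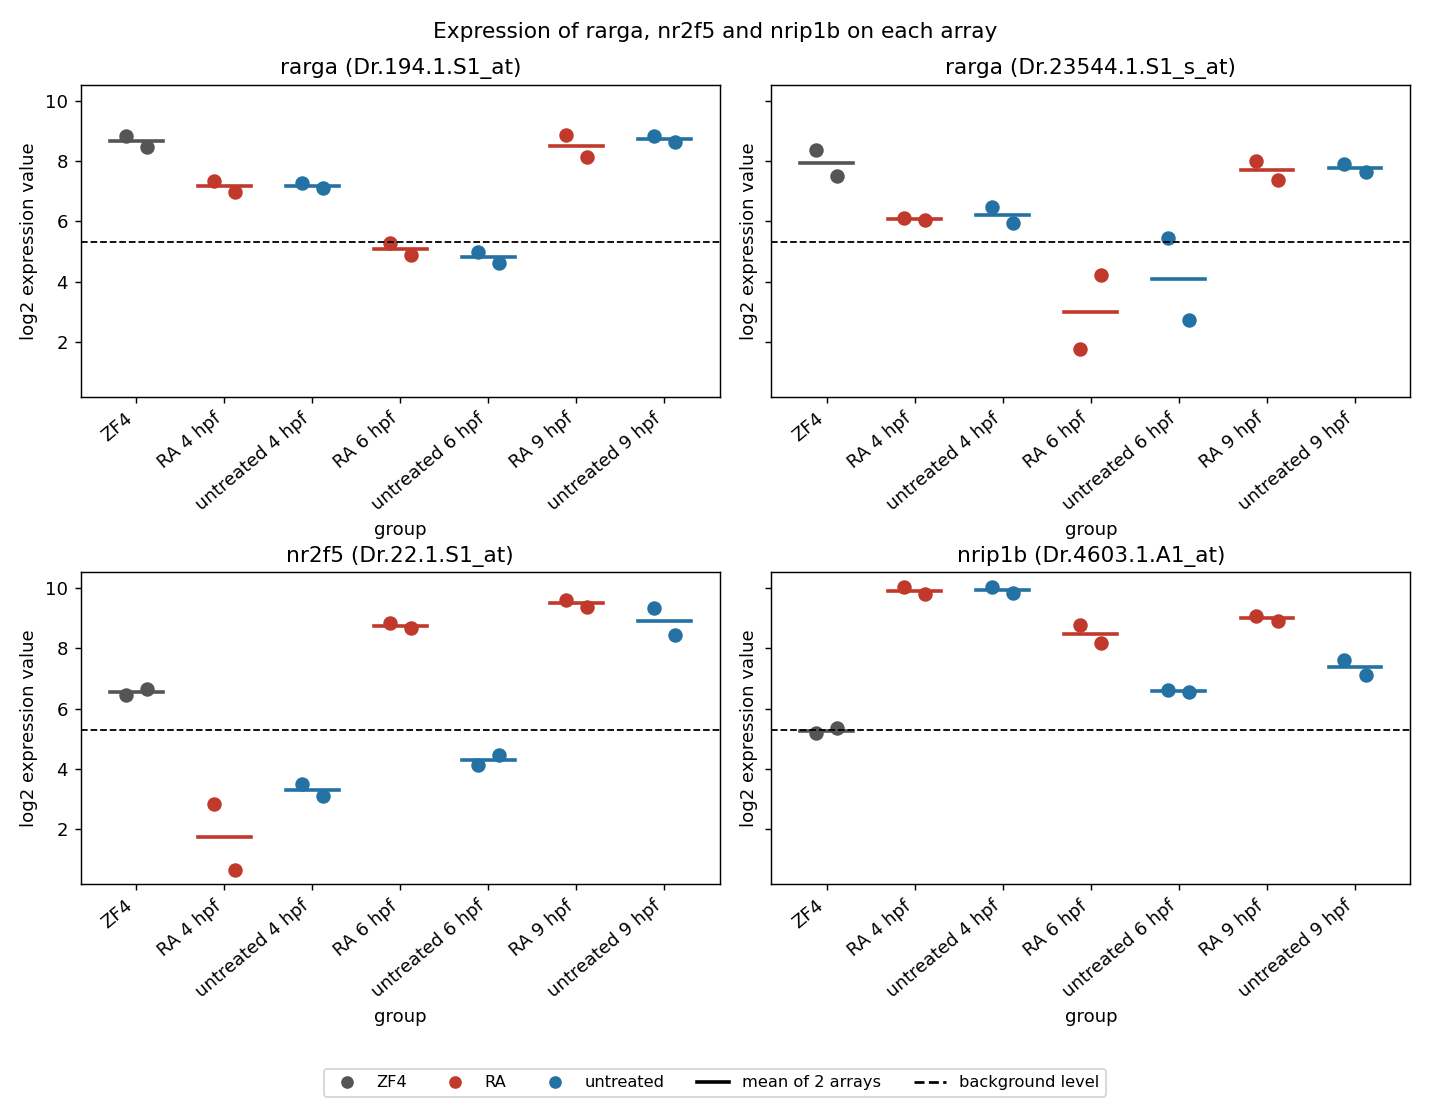
Log2 expression value of each probe set of rarga, nr2f5 and nrip1b on each of the 14 arrays, by group. Points are single arrays, short lines the mean of 2 arrays, and the dashed line the background level of 5.30. All 6 hpf arrays of the rarga probe set Dr.194.1.S1_at lie under that level, as do 3 of the 4 of Dr.23544.1.S1_s_at. At 6 hpf nr2f5 is above it in RA embryos alone, and nrip1b is higher in RA embryos than in untreated embryos at 6 and 9 hpf.

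Of the receptors, rarga comes first. Its probe set Dr.194.1.S1_at read 7.33 and 6.98 in RA embryos at 4 hpf, and 7.26 and 7.11 in untreated embryos. At 6 hpf it read 5.27 and 4.89 in RA embryos and 4.998 and 4.62 in untreated embryos. At 9 hpf it read 8.84 and 8.15 in RA embryos and 8.82 and 8.61 in untreated embryos. The treatments overlapped at each stage, and all 4 arrays of 6 hpf were at or below background. ZF4 cells, at 8.83 and 8.46, lay in the range of the 9 hpf embryos.

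No difference of rarga between RA and untreated embryos was called at any stage. The RA minus untreated difference was -0.03 at 4 hpf (95% confidence interval -0.76 to 0.70, adjusted p = 0.9999) and -0.22 at 9 hpf (-0.95 to 0.51, adjusted p = 0.9997). These intervals leave room for changes of up to about 1 log2 unit in the direction of lower expression. At 6 hpf the fitted difference was 0.27 ± 0.33 (SE, adjusted p = 0.968), and no fold is given since both groups were at or below background.

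The dip at 6 hpf was called in both treatments. In untreated embryos rarga was at least 3.69-fold lower at 6 than at 4 hpf (log2 difference -2.38 ± 0.33, adjusted p = 0.000314) and at least 10.7-fold higher at 9 than at 6 hpf (3.91 ± 0.33, adjusted p = 0.000188). In RA embryos it was at least 3.61-fold lower at 6 than at 4 hpf (-2.08 ± 0.33, adjusted p = 0.00072) and at least 9.15-fold higher at 9 than at 6 hpf (3.42 ± 0.33, adjusted p = 0.000177). The level at 9 hpf also passed that of 4 hpf, by 1.34 ± 0.33 in RA embryos (adjusted p = 0.00604) and 1.53 ± 0.33 in untreated embryos (adjusted p = 0.00314). The call in RA embryos was lost without RA 9 hpf replicate 1 (0.99, adjusted p = 0.0629).

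The other probe set of rarga, Dr.23544.1.S1_s_at, is of the type whose probes can match more than 1 transcript in the design of the array, so its reading is less specific. It read 6.09 and 6.03 in RA embryos at 4 hpf against 6.48 and 5.95 in untreated embryos, and 1.75 and 4.23 in RA embryos at 6 hpf against 5.44 and 2.73 in untreated embryos. At 9 hpf it read 8.002 and 7.38 in RA embryos against 7.91 and 7.65 in untreated embryos, and ZF4 cells gave 8.38 and 7.51. Both probe sets thus had their lowest group means at 6 hpf and their highest at 9 hpf and in ZF4 cells. Replicates of 6 hpf were over 2 log2 units apart on this probe set, near background, and its errors were larger.

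The rise from 6 to 9 hpf was called on this probe set as well, by 4.70 ± 0.90 in RA embryos (adjusted p = 0.00652) and 3.70 ± 0.90 in untreated embryos (adjusted p = 0.0274). The fall from 4 to 6 hpf was called in RA embryos (-3.07 ± 0.90, adjusted p = 0.0198), and in untreated embryos the difference of -2.14 ± 0.90 missed the threshold (adjusted p = 0.0856). The rise in untreated embryos was lost without untreated 6 hpf replicate 2 (2.34, adjusted p = 0.181) or untreated 9 hpf replicate 1 (3.56, 0.134) or 2 (3.83, 0.0939). The fall in RA embryos was lost without RA 6 hpf replicate 1 (-1.83, adjusted p = 0.171) or RA 4 hpf replicate 1 (-3.04, 0.0795) or 2 (-3.10, 0.0632). Neither an RA effect at any stage nor the step from 4 to 9 hpf was called. The probe sets of rarga correlated at r = 0.96 over the 12 embryo arrays, which share stages and hybridizations.

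nr2f5, the orphan receptor gene, began at background. It read 2.85 and 0.66 in RA embryos at 4 hpf and 3.51 and 3.10 in untreated embryos, all at or below background. At 6 hpf it read 8.83 and 8.68 in RA embryos, while both untreated arrays, at 4.13 and 4.48, were still at or below background. At 9 hpf it read 9.60 and 9.38 in RA embryos and 9.35 and 8.44 in untreated embryos. The groups did not overlap at 6 hpf or at 9 hpf, with RA embryos the higher at both. At 9 hpf they stood apart only narrowly (lowest RA array 9.38, highest untreated array 9.35), and that difference was not called. They did not overlap at 4 hpf either, with RA embryos the lower, but values under the background level have no order.

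At 6 hpf nr2f5 was at least 11-fold higher in RA embryos than in untreated embryos (log2 difference 4.45 ± 0.62, adjusted p = 0.0181). Of the 4 probe sets, 2 were called at this stage, that of nr2f5 and that of nrip1b, where 0.284% of all probe sets were called. Since the members were chosen with earlier results of these data known, these counts test no enrichment. At 9 hpf the difference was 0.60 (95% confidence interval -0.79 to 1.98, adjusted p = 0.9997). At 4 hpf it was -1.55 ± 0.62 (adjusted p = 0.837) between values at or below background.

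The call at 6 hpf was close to the threshold. It was lost when any 1 of the 4 arrays was left out, while the difference stayed large: 4.38 without RA replicate 1 (adjusted p = 0.163), 4.53 without RA replicate 2 (0.186), 4.28 without untreated replicate 1 (0.153) and 4.62 without untreated replicate 2 (0.1). The tag controls of the untreated arrays at 6 hpf were also lower than those of the RA arrays, by less than 2 log2 units, and their part in the difference was not tested. With 32 added to each value before taking logs, which damps differences between dim values, the difference was 3.16 ± 0.28 (adjusted p = 0.00155).

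Between stages, nr2f5 rose at different intervals in the treatments. In RA embryos it was at least 11-fold higher at 6 than at 4 hpf (7.0 ± 0.62, adjusted p = 3.73e-05), and the difference between 9 and 6 hpf was 0.73 ± 0.62 (adjusted p = 0.507). In untreated embryos both 4 and 6 hpf were at background (difference 1.00 ± 0.62, adjusted p = 0.238), and nr2f5 was at least 12.1-fold higher at 9 than at 6 hpf (4.59 ± 0.62, adjusted p = 0.00179). Measured from 4 hpf, the level of 9 hpf was at least 18.2-fold higher in RA embryos (adjusted p = 6.58e-06) and at least 12.1-fold higher in untreated embryos (adjusted p = 5.14e-05).

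Whether the RA effect itself differed between stages was tested as a contrast of the same model. For nr2f5 the fitted effect at 6 hpf minus that at 4 hpf was 6.00 ± 0.88, which missed the threshold by limma (adjusted p = 0.0774). Both 4 hpf groups and the untreated 6 hpf group in this contrast were at or below background, so its size is not a measured excess. The effect at 9 hpf was below that at 6 hpf by a fitted -3.85 ± 0.88 (adjusted p = 0.728), also not called. In these contrasts 0.00645% of all probe sets were called, 1 in each, and of the 4 probe sets none.

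As a further comparison, chosen after the values were seen, RA embryos of 6 hpf were set against untreated embryos of 9 hpf. nr2f5 averaged 8.76 ± 0.11 in RA embryos at 6 hpf and 8.89 ± 0.64 in untreated embryos at 9 hpf (SD, n = 2 each), a difference of -0.14 (95% confidence interval -1.52 to 1.25, adjusted p = 0.925). rarga was at least 10.7-fold lower in the RA embryos of 6 hpf (-3.64 ± 0.33, adjusted p = 0.000123). Thus nr2f5 in these embryos stood near the untreated level of the later stage, and rarga was at or below background, as in untreated embryos of its own stage. In this comparison 3 of the 4 probe sets were called, both of rarga and that of nrip1b, and 16.1% of all probe sets.

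**Figure D2:**
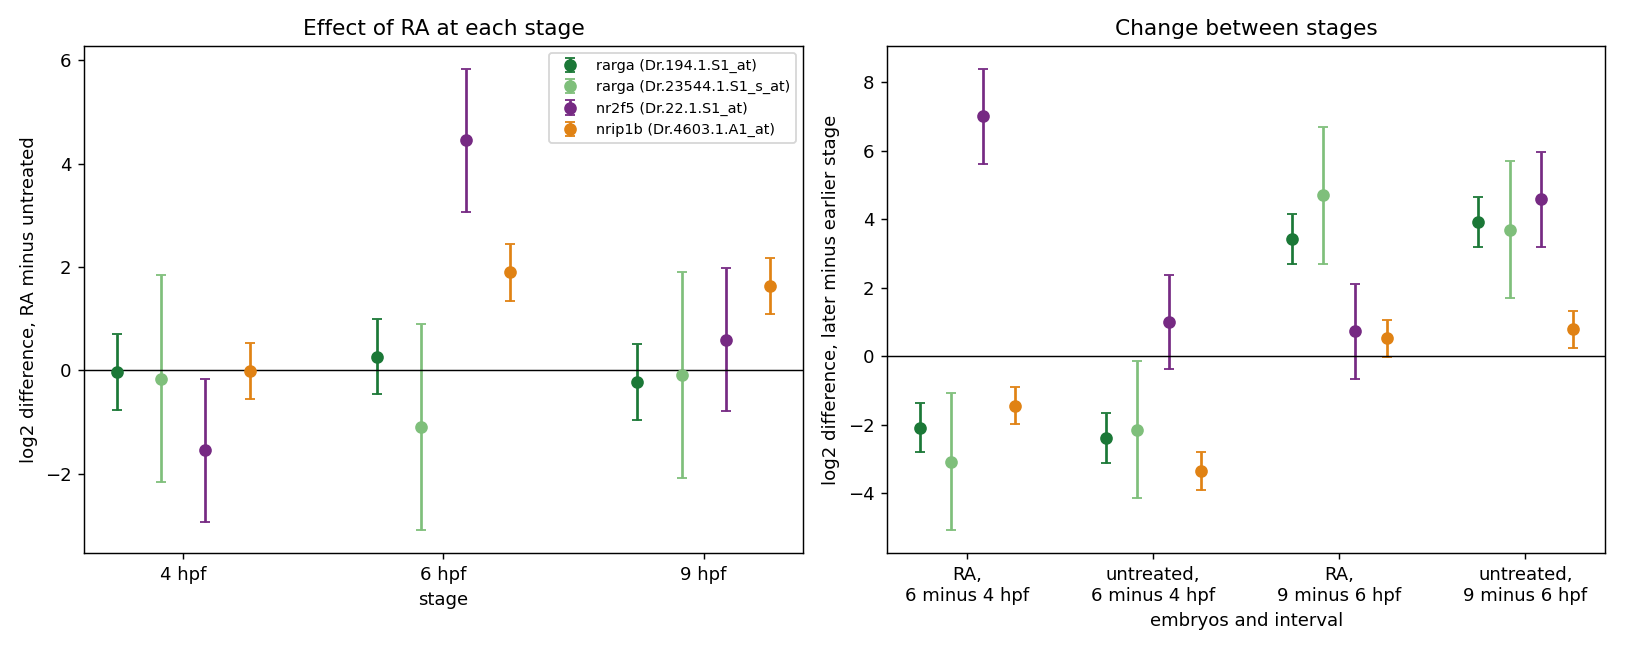
Log2 differences with 95% confidence intervals from the limma model for each probe set. The left panel plots RA minus untreated at 4, 6 and 9 hpf, and the right panel the later minus the earlier stage within RA and within untreated embryos. nr2f5 stands at 4.45 and nrip1b at 1.90 in the left panel at 6 hpf, while the intervals of rarga include 0 at each stage there, and in the right panel both treatments show its fall and rise.

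The corepressor gene nrip1b was above background on every embryo array, and its differences had the smallest errors. It read 10.05 and 9.79 in RA embryos at 4 hpf and 10.02 and 9.84 in untreated embryos. At 6 hpf it read 8.77 and 8.19 in RA embryos and 6.61 and 6.55 in untreated embryos. At 9 hpf it read 9.09 and 8.92 in RA embryos and 7.62 and 7.13 in untreated embryos. The treatments overlapped at 4 hpf, and at 6 and 9 hpf each RA array lay above each untreated array.

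At 6 hpf nrip1b was 3.72-fold higher in RA embryos (1.90 ± 0.25, adjusted p = 0.0114). As for nr2f5, leaving out any 1 of the 4 arrays ended the call: the difference was 1.61 without RA replicate 1 (adjusted p = 0.118), 2.18 without RA replicate 2 (0.0579), 1.93 without untreated replicate 1 (0.0994) and 1.87 without untreated replicate 2 (0.0889). Unlike nr2f5, nrip1b was above background on all 4 arrays.

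At 9 hpf the difference was 1.63 ± 0.25 (95% confidence interval 1.09 to 2.18, unadjusted p = 5.26e-05 by limma), which was not called after adjustment (adjusted p = 0.17). No probe set of the 15502 was called by limma at this stage (0%), with 424 at an unadjusted p under 0.05. That count is below the share of 0.05 that would pass with no effect at all. At 4 hpf the difference was -0.01 (-0.55 to 0.54, adjusted p = 0.9999), where 0.0903% of all probe sets were called and none of the 4. The RA effects of nrip1b at 6 and 9 hpf differed by -0.26 ± 0.35 (adjusted p = 0.9997), and each exceeded that of 4 hpf without being called, by 1.90 ± 0.35 at 6 hpf (adjusted p = 0.13) and by 1.64 ± 0.35 at 9 hpf (adjusted p = 0.573). For the contrast of 9 with 4 hpf no probe set was called by limma (0%), with 498 at an unadjusted p under 0.05, also below that share.

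nrip1b fell between 4 and 6 hpf in both treatments, by 1.44 ± 0.25 in RA embryos (adjusted p = 0.00113) and by 3.34 ± 0.25 in untreated embryos (adjusted p = 1.85e-05). From 6 to 9 hpf the differences were 0.53 ± 0.25 in RA embryos (adjusted p = 0.189) and 0.79 ± 0.25 in untreated embryos (adjusted p = 0.0718). At 9 hpf it was still below 4 hpf, by -0.91 ± 0.25 in RA embryos (adjusted p = 0.0101) and -2.55 ± 0.25 in untreated embryos (adjusted p = 2.07e-05). The call in RA embryos was lost without RA 4 hpf replicate 1 (-0.78, adjusted p = 0.0723) or RA 9 hpf replicate 2 (-0.83, adjusted p = 0.0571). Against untreated embryos of 9 hpf, nrip1b was higher in RA embryos of 6 hpf by 1.11 ± 0.25 (adjusted p = 0.0132), a call lost without RA 6 hpf replicate 1 (0.82, adjusted p = 0.0975) or untreated 9 hpf replicate 2 (0.86, adjusted p = 0.0899).

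Stage changes were common on these arrays, so the members' calls are read against the share of all probe sets called. The 2 probe sets of rarga measure 1 gene, so these are not counts of separate genes. Because the members were chosen with earlier results of these data known, the counts test no enrichment. Between 4 and 6 hpf 4 of the 4 probe sets were called in RA embryos, where 40.5% of all were, and 2 of 4 in untreated embryos, where 40.1% were. Between 6 and 9 hpf 2 of 4 were called in RA embryos (16% of all), both of them of rarga. In untreated embryos 3 of 4 were called (10.1% of all), both of rarga and that of nr2f5. Between 4 and 9 hpf 3 of 4 were called in each, with 51.1% of all in RA embryos and 46% in untreated embryos.

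In ZF4 cells nr2f5 and nrip1b were called lower than in untreated embryos of 9 hpf, and rarga was not called. rarga, at 8.65 ± 0.26 in ZF4 cells and 8.72 ± 0.15 in untreated embryos of 9 hpf (SD, n = 2 each), differed by -0.07 (95% confidence interval -0.75 to 0.60, adjusted p = 0.879). nr2f5 read 6.47 and 6.66 in ZF4 cells, below both untreated arrays of 9 hpf, a difference of -2.33 ± 0.59 (adjusted p = 0.00655) that was lost without untreated 9 hpf replicate 1 (-1.88, adjusted p = 0.0643). nrip1b read 5.19 and 5.35 in ZF4 cells, with 1 of 2 arrays above background, and lay 2.11 ± 0.23 under untreated embryos of 9 hpf (difference -2.11, adjusted p = 2.89e-05).

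Against untreated embryos of 4 hpf, rarga was higher in ZF4 cells by 1.46 ± 0.30 (adjusted p = 0.00178), nr2f5 was at least 2.39-fold higher (adjusted p = 0.000591) and nrip1b was lower (-4.66 ± 0.23, adjusted p = 3.63e-08). Of all probe sets, 45.4% were called between ZF4 cells and untreated embryos of 9 hpf, and 51.2% against those of 4 hpf, with 2 and 3 of the 4 member probe sets among them. Of 15 fibroblast and matrix markers, 13 were above background on both ZF4 arrays, against 6 at 9 hpf and 4 at 4 hpf in untreated embryos. Their log2 summed levels were 14.38 and 14.33 in ZF4 cells and ranged from 11.58 to 12.90 in untreated embryos. Cell line and embryo differ in cell type, culture and age at once, which cannot be told apart.

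The order of the group means differed between the genes. For rarga the untreated 9 hpf embryos, ZF4 cells and RA 9 hpf embryos came highest and overlapped with their neighbours, then the 4 hpf groups, which overlapped, then the 6 hpf groups, which also did. For nr2f5 RA 9 hpf embryos came highest, followed by untreated 9 hpf embryos and RA 6 hpf embryos, which overlapped with each other, then ZF4 cells, then the 3 groups at background. For nrip1b the 4 hpf groups overlapped at the top, followed without overlap by RA embryos of 9 hpf, RA embryos of 6 hpf, untreated embryos of 9 hpf, untreated embryos of 6 hpf and ZF4 cells. Over the 12 embryo arrays rarga correlated with nr2f5 at r = 0.41 and with nrip1b at r = 0.26, and nr2f5 with nrip1b at r = -0.17. These are descriptions over arrays that share stages and treatments.

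Among the other retinoid receptors, 7 of 10 listed genes were measured, rarga included, and none was called with RA at any stage. Of all probe sets 0.0903% were called at 4 hpf, 0.284% at 6 hpf and 0% at 9 hpf. The median RA minus untreated difference at 6 hpf was 0.62 over the receptors and -0.02 over all probe sets. Only 4 of the 7 were above background on both arrays in each treatment at that stage. This median is the value of rxrba (0.62 ± 0.47, adjusted p = 0.871), and whether the family shifted as a set was not tested. raraa, an RA receptor of the alpha type, read 10.37 and 10.27 in RA embryos at 6 hpf and 8.36 and 7.80 in untreated embryos, without overlap (2.24 ± 0.41, adjusted p = 0.0689), and it was called after quantile normalization (2.13, adjusted p = 0.0355). Between 4 and 6 hpf in untreated embryos raraa rose by 2.61 ± 0.41 (adjusted p = 0.000659, with 1 of 2 arrays of 4 hpf above background), while rarab, the other alpha type receptor, fell by 1.01 ± 0.17 (adjusted p = 0.000971) and rarga fell as given above. From 6 to 9 hpf rarga alone of the 7 was called in untreated embryos, where 10.1% of all probe sets were called. In RA embryos rarga was called higher and rxrba, a retinoid X receptor, lower over that interval (at least 3.09-fold, adjusted p = 0.0212), the call of rxrba being lost without any 1 of the 4 arrays (adjusted p = 0.0551 to 0.13).

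Of the NR2 and NR6 receptors, the wider family of nr2f5, 10 of 12 listed genes were measured. nr2f5 was the only one called with RA, at 6 hpf, where 0.284% of all probe sets were called. The median difference of the list at 6 hpf was 0.82, but only 3 of the 10 genes in RA embryos and 2 in untreated embryos were above background on both arrays at that stage, so the median is mostly over values that have no order. nr2f6b, another NR2F receptor, read 9.07 and 9.09 in RA embryos at 6 hpf and 6.41 and 6.74 in untreated embryos, without overlap, and its difference of 2.51 ± 0.96 was not called (adjusted p = 0.555). In untreated embryos nr2f6a rose by 2.62 ± 0.23 between 4 and 6 hpf (adjusted p = 3.06e-05) and nr2f6b was at least 2.41-fold higher (adjusted p = 0.0252). nr2f1b was at least 1.21-fold lower (adjusted p = 0.00326), but with a mean of 5.58 at 4 hpf it was near background, with 1 of 2 arrays above it. The call of nr2f6b was lost without any 1 of the 4 arrays (adjusted p = 0.0778 to 0.106). From 6 to 9 hpf nr2f5 was the only one of the 10 called in untreated embryos, where 10.1% of all probe sets were called. Only 2 of the 10 in untreated embryos of 6 hpf and 3 in those of 9 hpf were above background on both arrays. In RA embryos 4 of the 10 were called higher and 0 lower between 4 and 6 hpf, against 21.2% and 19.3% of all probe sets. nr2f6b, at least 13.7-fold higher (adjusted p = 0.000282), was among them beside nr2f5. nr2f1a was also among them, but between values at or below background (means of 4.87 and 1.66), which have no order. From 6 to 9 hpf in RA embryos nr2f1a was called higher (at least 5.94-fold, adjusted p = 0.0183). nr2f1b was called lower over that interval, between values at or below background. In ZF4 cells 6 of the 10 were above background on both arrays, against 3 in untreated embryos of 9 hpf and 1 in those of 4 hpf.

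Of the corepressors, 13 of 21 listed genes were measured. nrip1b was the only one called with RA, at 6 hpf, where 0.284% of all probe sets were called. The median difference of the 13 was 0.17 at that stage. All 13 were above background on both arrays in each of the 6 embryo groups, and 11 in ZF4 cells. Between 4 and 6 hpf in untreated embryos 7 of the 13 were called lower and 2 higher, where 20.9% of all probe sets were called lower and 19.1% higher, with a list median of -0.77 against 0.05 over all probe sets. The falls of nrip1b (-3.34) and of sin3ab (-2.00 ± 0.18, adjusted p = 3.27e-05), a scaffold of histone deacetylase complexes, were the 2 largest. hdac1, a histone deacetylase, was called higher by 0.49 ± 0.11 (adjusted p = 0.00516) and kdm1a, a histone demethylase, by 1.12 ± 0.12 (adjusted p = 8.84e-05). The counts of lower and higher calls were 5 and 1 after quantile normalization and 5 and 2 with all arrays set to a common median.

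From 6 to 9 hpf 2 of the 13 corepressors were called higher in untreated embryos and none lower, against 4.37% of the probe sets tested called higher and 5.74% lower. They were sin3ab, by 0.93 ± 0.18 (adjusted p = 0.0093), and rcor1, which joins kdm1a in the CoREST complex, by 0.66 ± 0.18 (adjusted p = 0.0458). Leaving out single arrays raised the adjusted p to between 0.025 and 0.0708 for sin3ab and between 0.116 and 0.209 for rcor1. The call of sin3ab was lost without untreated 6 hpf replicate 1 or either untreated array of 9 hpf, and that of rcor1 without any 1 of the 4 arrays. Over this interval nrip1b was not called.

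**Figure D3:**
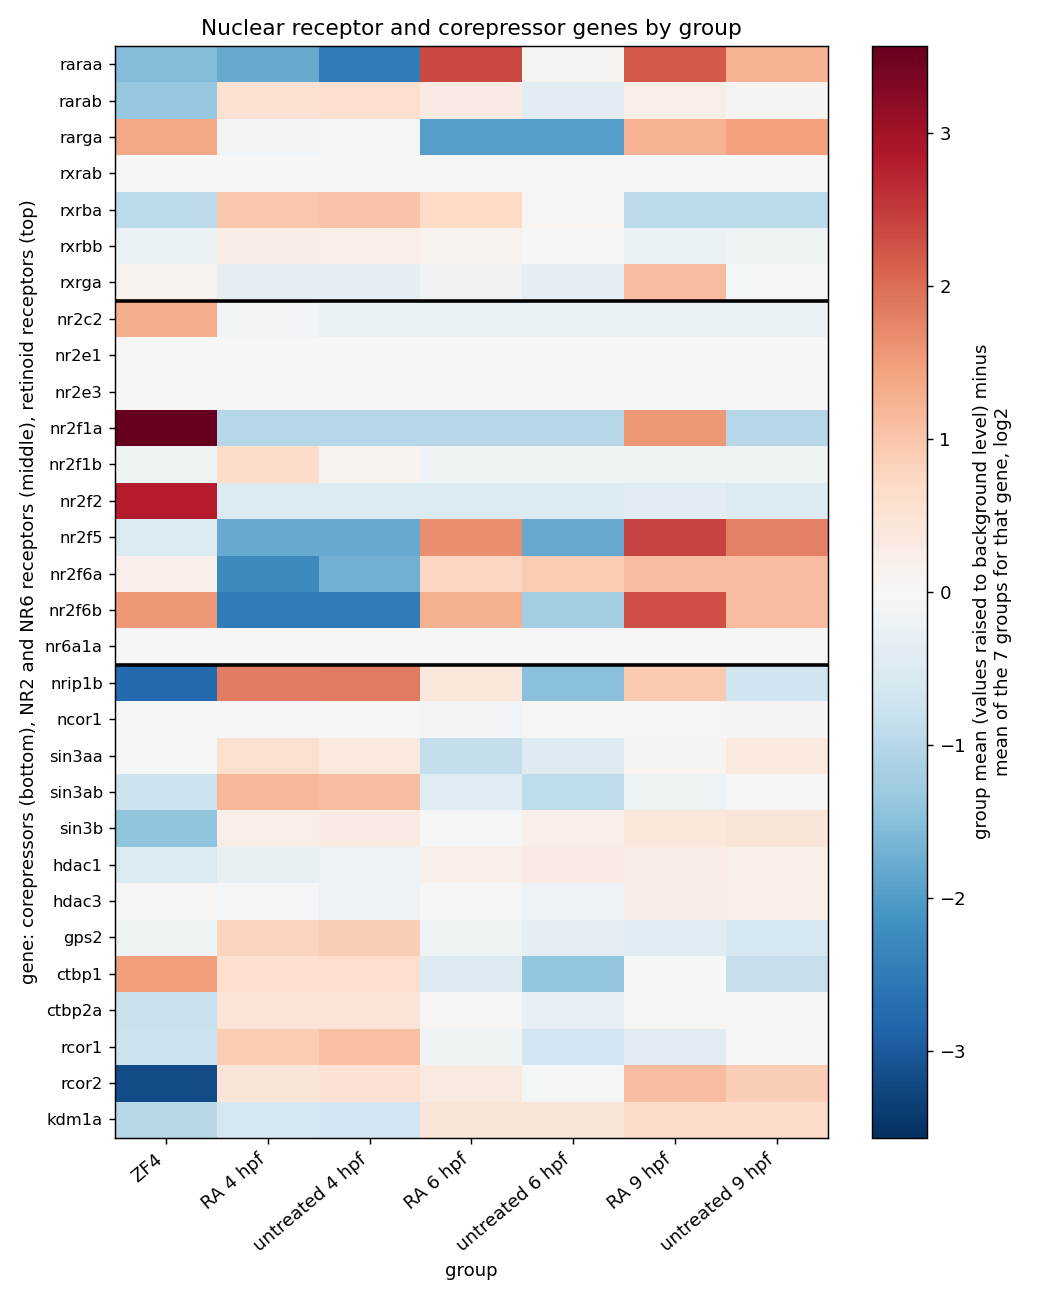
Group means of the measured retinoid receptor, NR2 and NR6 receptor and corepressor genes, with array values raised to the background level where lower, minus the mean over the 7 groups for the same gene (log2). Colours compare groups within a row, not genes with each other. rarga is lowest in both 6 hpf columns, nr2f5 is high in the RA 6 hpf column and low in the untreated 6 hpf column, and nrip1b is highest at 4 hpf and lowest in ZF4 cells.

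For the remaining lists, calls with RA stand beside 0.0903% of all probe sets called at 4 hpf, 0.284% at 6 hpf and 0% at 9 hpf. None of 25 other nuclear receptors (of 51 listed) and none of 11 coactivators (of 24 listed) was called at 4, 6 or 9 hpf. Their median differences at 6 hpf were -0.15 and 0.00. At that stage only 7 of the 25 receptors in RA embryos and 6 in untreated embryos were above background on both arrays. Their median is thus mostly over values that have no order, and the others could hardly be called. Of the 11 coactivators, 8 in RA embryos and 9 in untreated embryos were above it. For 17 retinoid metabolism and transport genes (of 37 listed) the median was 0.06, with 9 above background in RA embryos and 8 in untreated embryos. Among them cyp26a1, which encodes an enzyme that degrades RA, was called at 4 and 6 hpf. aldh1a2, which encodes an enzyme that makes RA, was called at 6 hpf. Thus at 6 hpf 1 of the 17 was called higher and 1 lower, against 0.252% and 0.0323% of all probe sets. After quantile normalization cyp26b1, an RA-degrading enzyme gene (4.65, adjusted p = 0.0339, against 4.44 and 0.0689 as deposited), and dhrs3a, a retinaldehyde reductase gene (5.40, adjusted p = 0.0448, against 5.02 and 0.0761), were also called at 6 hpf, with both untreated arrays of each at or below background. cyp26a1 read 12.10 and 12.11 in RA embryos at 6 hpf and 10.32 and 10.22 in untreated embryos (1.84 ± 0.26, adjusted p = 0.0181), and it was higher by 1.95 ± 0.26 at 4 hpf (adjusted p = 0.0279), where rarga, nr2f5 and nrip1b were not called. aldh1a2 read 7.69 and 6.79 in RA embryos at 6 hpf and 10.03 and 9.98 in untreated embryos (-2.77 ± 0.34, adjusted p = 0.00837). The 6 hpf calls were near the threshold, that of aldh1a2 less so than those of the members. That of cyp26a1 was lost without any 1 of the 4 arrays (adjusted p = 0.128 to 0.193), that of aldh1a2 without either untreated array or RA replicate 2 (up to 0.101), and the 4 hpf call of cyp26a1 without either untreated array (up to 0.148).

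Genes whose levels over the 12 embryo arrays were most like those of each member were found by Pearson correlation, after values under the background level were raised to it. The measure says only that levels ran together over arrays that share stages and treatments. For rarga the 5 highest were tfdp2 (r = 0.98), rpn2 (0.96), zmiz1a (0.96), rassf8b (0.95) and tmem39b (0.95). tfdp2, which encodes a dimerization partner of E2F factors, averaged 5.65 at 6 hpf in RA embryos and 5.33 in untreated embryos, below its averages at 4 hpf (7.10 in RA and 7.06 in untreated embryos) and 9 hpf (8.42 in RA and 8.36 in untreated embryos). The lowest were acss2 (-0.97), pcmtd1 (-0.97) and a2m3a (-0.97).

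For nr2f5 the highest were meis2b (r = 0.99), zic1 (0.99), meis1b (0.98), nr2f6b (0.97) and znf503 (0.97). meis2b and meis1b encode homeodomain partners of Hox proteins, zic1 encodes a zinc finger factor of the neural plate, and nr2f6b belongs to the family of nr2f5. meis2b averaged 8.98 in RA embryos at 6 hpf against 4.42, under background, in untreated embryos. At 9 hpf it averaged 10.23 in RA embryos against 9.46 in untreated embryos. nr2f5, meis2b and meis1b were at or below background on all arrays of 4 hpf and on the untreated arrays of 6 hpf. There their values were raised to the background level, so r partly records this shared state. The lowest were sarm1, max and shmt2 (each -0.92).

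For nrip1b the highest were gpn2 (r = 0.93), sox19b (0.92), ccnyl1 (0.92), bmi1a (0.92) and rarab (0.92), and the lowest rasl11b (-0.96), top2b (-0.94) and pcdh8 (-0.94). sox19b encodes a SoxB1 factor that is maternally supplied, bmi1a a Polycomb protein and rarab an RA receptor. sox19b averaged 8.70 in RA embryos at 6 hpf against 7.78 in untreated embryos, below 10.65 in RA and 10.39 in untreated embryos of 4 hpf. With Spearman's rho in place of r, 1 of the 5 genes was kept for rarga, 1 for nr2f5 and 2 for nrip1b, and over all 14 arrays 1, 2 and 2 were kept. The choice of measure thus decided most of these names.

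**Figure D4:**
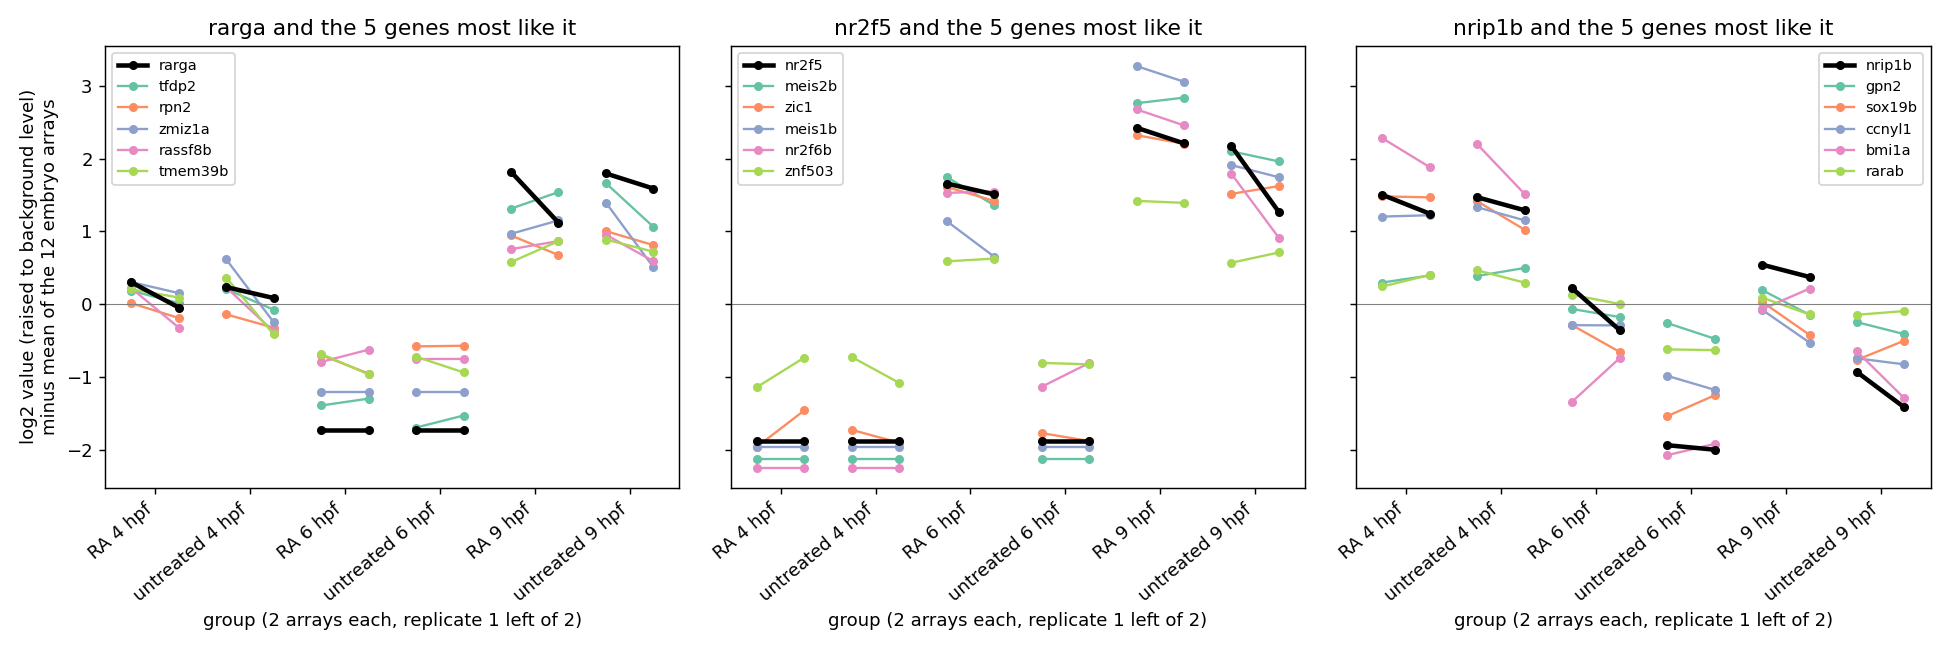
Log2 values on the 12 embryo arrays, raised to the background level where lower and set against the mean of the 12 arrays for the same gene, for each member (black) and the 5 genes most like it. The rarga panel dips at 6 hpf in both treatments, and the nr2f5 panel is high at 6 hpf in RA embryos and low in untreated embryos. The nrip1b panel falls from 4 hpf with the RA arrays above the untreated arrays at 6 and 9 hpf, except for rarab, whose treatments overlap at 9 hpf.

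The members differ in where they lie in the genome. In the gene order of the RefSeq annotation of the GRCz12tu assembly, rarga lies beside the hoxca cluster, with hoxc13a as the 3rd protein-coding gene away and hoxc1a as the 13th. On the chromosome of nr2f5 the nearest hox gene is hoxa2b, 617 genes away, and that of nrip1b holds none. Of 9 measured hox genes beside rarga, hoxc5a was called with RA at 6 hpf (adjusted p = 0.0114), where 0.284% of all probe sets were called. Its mean was 6.90 in RA embryos and 0.72, under background, in untreated embryos. hoxc1a averaged 7.42 in RA and 0.82 in untreated embryos, hoxc4a 6.08 and 2.86, and hoxc3a 5.76 and 2.46. Each was above background on both RA arrays and neither untreated array, and none was called. The rest were above it on at most 1 RA array. The study lists hoxc1a, hoxc4a and hoxc5a as induced by RA at 6 hpf. From 6 to 9 hpf in untreated embryos hoxc5a, hoxc6a and hoxc8a were called higher (adjusted p = 0.0075, 0.00765 and 0.00183), as rarga was, where 4.37% of all probe sets were called higher. The call of hoxc5a with RA was lost without any 1 of the 4 arrays (adjusted p = 0.0807 to 0.18), and that of hoxc6a between stages without untreated 6 hpf replicate 2 (0.0629). hoxc5a, hoxc6a and hoxc8a were all under background at 6 hpf in untreated embryos. At 9 hpf hoxc5a was above it on only 1 of 2 untreated arrays, with a mean of 5.21. These genes were looked up after the member values were seen, and rarga itself was not called with RA. Among the measured genes within 5 places of the members, none was called with RA at 6 hpf, and usp25, beside nrip1b, differed by 0.75 ± 0.26 (adjusted p = 0.488). tuba1b lies 4 places from rarga on the side away from the hox genes. In untreated embryos it was called lower at 6 than at 4 hpf (-1.15 ± 0.24, adjusted p = 0.0035). It was called higher at 9 than at 6 hpf (1.16 ± 0.24, adjusted p = 0.013), the same directions as rarga. The probe set of tuba1b is of a type whose probes can also match other transcripts, so these values may not stem from tuba1b alone. The adjacent gene tuba1a was not measured. Of the measured hox genes, hoxc11a was called lower at 6 than at 4 hpf in untreated embryos (adjusted p = 0.00159). It was not called from 6 to 9 hpf (adjusted p = 0.587). hoxc6a was called higher at 6 than at 4 hpf (adjusted p = 0.0372), between values under background. The other measured hox genes were not called between 4 and 6 hpf. A link of these changes to position was not tested.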

How the data were processed

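Total RNA from whole embryos or ZF4 cells was hybridized to Affymetrix zebrafish arrays. The deposited values are log2 expression values per probe set, for which the authors corrected background by mas5 and normalized arrays by invariantset in expresso of the R package affy (2.15.2 per the processing notes). No header names the log base, which was taken from the range of the values (-5.30 to 13.90). How probes were summarised and mismatch probes treated is not given in the sources used here. In the study's methods untreated embryos on this platform appear only for 9 hpf, and for 4 and 6 hpf the labels were followed.

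Each array holds 15617 probe sets, of which 115 controls were left out. Symbols came from the platform gene table supplied with the series (10795 probe sets with 1 gene, 135 with several, 4572 with none). A gene of a list was represented by its brightest probe set. Group means were fitted with limma 3.58.1 (R 4.3.3) on the 12 embryo arrays (on all 14 where ZF4 was compared), letting the prior variance follow the intensity (trend). All tests were two-sided, with p-values adjusted over 15502 probe sets. The fit was tested on simulated data. No 2 arrays held identical values (0 of 91 pairs).

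The members, gene lists and rules were chosen with earlier results of these data known. Named in the text are the members, the 5 most and 3 least correlated genes of each, list genes called with RA, and in the receptor and corepressor lists up to 2 of the largest rises and falls between stages. raraa, nr2f6b with RA, nr2f1a and nr2f1b in RA embryos, cyp26b1, dhrs3a, rxrba, tuba1b, usp25 and the hox genes were added after their values were seen. Alternatives were quantile normalization, a common median, 32 added to the values, no trend, the replicate number as a block, a filter for probe sets above background on at least 2 arrays, only the groups compared, and leaving out each array. No sequence is printed, since none was in the tables used here.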

Additional observations from a re-analysis of the deposited data

Results flagged for a closer look

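The fitted RA difference of nr2f5 had opposite signs at 4 hpf and at the later stages, but at 4 hpf no direction can be given, since all 4 arrays were at or below background, where values have no order. At 4 hpf each RA array lay below each untreated array (2.85 and 0.66 in RA embryos, 3.51 and 3.10 in untreated embryos), and at 6 and 9 hpf each RA array lay above each untreated array. At 9 hpf the gap was narrow (lowest RA array 9.382, highest untreated array 9.345), and the RA difference there was not called. The effect at 6 hpf minus that at 4 hpf was 5.998 (adjusted p = 0.0774 by limma), and the effect at 9 hpf minus that at 4 hpf was 2.145 (adjusted p = 0.999), so neither difference was called.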

How the results depend on the processing

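The calls with RA at 6 hpf rested on all 4 arrays: leaving out 1 of them gave 4.28 to 4.622 for nr2f5 and 1.61 to 2.184 for nrip1b, none called, where the remaining array of a group is assumed to vary like the other groups. Without the intensity trend nr2f5 (4.451, adjusted p = 0.0534) and nrip1b (1.897, adjusted p = 0.0506) were not called either. Under the other planned settings both calls held. Of the values with 1 array left out, 242 kept their direction and side of the threshold, 20 were no longer called, 3 became called and 23 changed sign, and of those under other settings 412, 5, 11 and 4.

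Differences near 0 changed sign, as did larger ones of the less specific rarga probe set that involve 6 hpf, where its replicates stood far apart. For RA against untreated embryos, single arrays left out gave -0.2059 to 0.1415 for rarga at 4 hpf, -0.5718 to 0.1268 for rarga at 9 hpf and -0.1371 to 0.1224 for nrip1b at 4 hpf. A common median gave 0.01118 for rarga and 0.03604 for nrip1b at 4 hpf, and quantile normalization 0.0006942 for nrip1b. On the same basis the differences between RA effects ran from -0.5508 to 0.02283 for nrip1b (9 minus 6 hpf) and -0.5396 to 0.159 for rarga (9 minus 4 hpf). ZF4 cells against untreated 9 hpf embryos gave -0.2569 to 0.1111 for rarga, and RA 6 hpf against untreated 9 hpf embryos -0.5886 to 0.3157 for nr2f5. The less specific rarga probe set gave -0.4214 to 0.1079, -2.449 to 0.2654 and -0.3987 to 0.2231 for RA at 4, 6 and 9 hpf, -2.293 to 0.4222, -0.3533 to 2.362 and -0.242 to 0.3798 for the RA effects of 6 minus 4, 9 minus 6 and 9 minus 4 hpf (-0.01744 after quantile normalization for the last), and -0.2646 to 0.598 for ZF4 against untreated 9 hpf embryos.

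Among the calls that moved were rarga between 4 and 9 hpf in RA embryos (0.9923 to 1.691 with 1 array left out) and nrip1b over the same interval (-1.043 to -0.7831). Others were nr2f5 in ZF4 against untreated 9 hpf embryos (-2.785 to -1.88) and nrip1b in RA 6 hpf against untreated 9 hpf embryos (0.8185 to 1.392, and 1.105 with adjusted p = 0.0594 when only these groups were fitted). Calls of the less specific rarga probe set also moved, as given in its paragraph above. The RA effect on nr2f5 at 6 minus 4 hpf (4.904 to 7.093) was called without either RA array of 4 hpf and with 32 added (3.372, adjusted p = 0.0217). Fitted on the groups compared alone, nr2f5 was called for RA 9 against 6 hpf (0.7337, adjusted p = 0.0468) and for the effect at 9 minus 6 hpf (-3.854, adjusted p = 0.0322).

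Whether equal replicate numbers mark samples of a shared batch is not given by the labels. The replicate differences of RA and untreated embryos correlated at 0.272, -0.023 and -0.382 over probe sets at 4, 6 and 9 hpf, so their sign differed between stages. Whether samples shared a batch at some stages was not tested. With the replicate block nrip1b was called between 6 and 9 hpf in untreated embryos (0.7914, adjusted p = 0.0395) and no other call of the members changed. A crossed pairing at 9 hpf, added after seeing the data, gave 10, 36 and 0 called probe sets for RA at 4, 6 and 9 hpf, where the block as numbered gave 8, 33 and 1 and no block 14, 44 and 0. Counts for RA at 4 hpf were 5 after quantile normalization, 0 with 32 added, 47 without the trend, 22 with the filter, 0 on the groups alone and 0 to 114 with 1 array left out. At 6 hpf they were 93 with 32 added, 74 on the groups alone and 1 to 19 with 1 array left out, and at 9 hpf 4 with 32 added. For the RA effect at 6 minus 4 hpf, 1 became 3 (quantile), 9 (32 added), 12 (no trend) and 0 (groups alone), and at 9 minus 6 hpf 4 (32 added), 2 (no trend) and 9 (groups alone). The causes of these changes were not tested.

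A common median moved the median of all probe sets between 4 and 6 hpf in untreated embryos to 0.203, against 0.052 as deposited. With the 99th percentile of the tag controls (5.71), chosen after seeing the data, as background level, nrip1b in ZF4 cells was above it on 0 of 2 arrays and the less specific rarga probe set at 6 hpf on none, and the other groups of the members kept their state. Values under background set no fold, and 2 arrays a group limit all errors.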
